A study of Drosophila melanogaster with 2 samples.

Results

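Among the 30000 pooled anti-GFP ChIP-seq peaks of nmo-GFP fly embryos, 571 had their summit at the start of a long noncoding RNA gene that stood apart from protein-coding promoters. A summit, the peak's highest point, was taken when it lay within 500 bp of an annotated start of a gene whose symbol begins with lncRNA: or asRNA:, and more than 1000 bp from every protein-coding start (annotation BDGP6, Ensembl release 115). Signal values did not enter the choice. By prefix, 531 members lay nearest to a lncRNA: gene and 40 to an asRNA: gene, and 457 different genes were nearest to a member. Of the 571, 162 were also in the shorter list that the authors thresholded by IDR, the irreproducible discovery rate, which scores whether a peak is ranked alike in repeated experiments.

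The study mapped Drosophila melanogaster chromatin recovered with a GFP-tagged Nemo protein. The material was whole embryos, 0 to 24 h old with males and females mixed, of a transgenic line that stably carries nmo with a C-terminal GFP tag. Sonicated chromatin of 200 to 800 bp was precipitated with an antibody against GFP. All samples form 1 group of 2 biological replicates, numbered 2 and 3, with no second genotype or treatment; neither an input nor a mock sample was analysed here, and whole embryos mix all embryonic cell types and stages. With 1 group the design holds no comparison of conditions, so members were set beside other classes of summit in the same lists. Peaks of 1 list are not replicates: shares carry exact Clopper-Pearson 95% intervals and densities exact Poisson 95% intervals, which cover counting error only, and no test was run. Read depth was unknown.

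Long noncoding RNAs are transcripts, often spliced and polyadenylated, that encode no long conserved protein. Some act as RNA, as do the roX RNAs that help the dosage compensation complex to spread along the male X chromosome, and others are precursors of small RNAs or mark active regulatory DNA. The asRNA: genes of the fly annotation are transcribed antisense to another gene. Nemo is the fly member of the Nemo-like kinases, which phosphorylate serine or threonine before proline, and it is best known for roles in tissue polarity and in the Wnt pathway. It is not known as a sequence-specific DNA-binding protein, and no RNA level was measured here.

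The DNA under 9 members is printed to show what lay at the strongest summits and at RNAs of known function. Each window runs 100 bp to either side of the summit and is written from the plus strand. The letters come from the RefSeq copy of Release 6, the fly assembly also called dm6. Capitals mark matches, on either strand, to sequences searched in all windows. These were the DRE (TATCGATA, the element bound by DREF), the TATA box written as TATAAA, the repeat GAGAGAG that GAGA factor recognises, the Zelda sequence CAGGTAG, the homeodomain core TAATTA, the E-box written as CAGCTG, and Motif 1, a core promoter element of the fly. The initiator core TCAGT was counted too but is not capitalised. The first 5 windows are the second to the sixth strongest members by pooled signal value. The other windows are at named RNAs, which the next paragraphs describe.
lncRNA:CR31044, chr3R:29214348-29214548: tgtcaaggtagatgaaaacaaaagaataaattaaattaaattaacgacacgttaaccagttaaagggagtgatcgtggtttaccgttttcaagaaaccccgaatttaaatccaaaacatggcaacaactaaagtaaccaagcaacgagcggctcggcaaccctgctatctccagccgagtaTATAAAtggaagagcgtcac
lncRNA:CR45595, chr3R:11780215-11780415: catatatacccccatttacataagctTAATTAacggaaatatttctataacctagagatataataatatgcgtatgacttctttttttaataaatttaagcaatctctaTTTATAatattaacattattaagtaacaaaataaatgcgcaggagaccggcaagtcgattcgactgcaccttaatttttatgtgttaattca
lncRNA:CR46036, chr3R:17700490-17700690: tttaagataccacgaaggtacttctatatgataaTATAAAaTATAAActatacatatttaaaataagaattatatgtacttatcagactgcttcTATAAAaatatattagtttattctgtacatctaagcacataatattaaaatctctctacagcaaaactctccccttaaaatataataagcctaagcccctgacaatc
lncRNA:CR45251, chr3L:11349973-11350173: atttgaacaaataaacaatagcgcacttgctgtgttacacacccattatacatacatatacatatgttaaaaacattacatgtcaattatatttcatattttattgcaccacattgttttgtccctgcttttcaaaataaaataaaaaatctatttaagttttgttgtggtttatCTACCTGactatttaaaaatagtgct
lncRNA:CR43626, chr3L:3250122-3250322: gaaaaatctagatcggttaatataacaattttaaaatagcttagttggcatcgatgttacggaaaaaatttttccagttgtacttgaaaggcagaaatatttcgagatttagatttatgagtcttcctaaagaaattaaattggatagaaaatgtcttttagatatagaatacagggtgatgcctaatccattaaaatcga
lncRNA:Hsromega, chr3R:21296221-21296421: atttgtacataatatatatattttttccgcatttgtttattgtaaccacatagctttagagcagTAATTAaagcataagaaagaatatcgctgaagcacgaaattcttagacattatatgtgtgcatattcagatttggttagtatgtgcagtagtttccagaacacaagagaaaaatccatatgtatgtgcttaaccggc
lncRNA:roX2, chrX:11578974-11579174: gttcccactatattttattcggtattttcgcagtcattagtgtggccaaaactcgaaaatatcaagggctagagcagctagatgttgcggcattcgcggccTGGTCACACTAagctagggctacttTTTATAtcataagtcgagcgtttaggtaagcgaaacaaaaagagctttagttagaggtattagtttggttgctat
lncRNA:iab8, chr3R:16899830-16900030: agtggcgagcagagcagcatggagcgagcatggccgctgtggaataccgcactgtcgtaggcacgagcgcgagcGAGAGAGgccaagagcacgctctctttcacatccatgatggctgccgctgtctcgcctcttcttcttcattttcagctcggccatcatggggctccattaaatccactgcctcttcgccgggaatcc
lncRNA:roX1, chrX:3862431-3862631: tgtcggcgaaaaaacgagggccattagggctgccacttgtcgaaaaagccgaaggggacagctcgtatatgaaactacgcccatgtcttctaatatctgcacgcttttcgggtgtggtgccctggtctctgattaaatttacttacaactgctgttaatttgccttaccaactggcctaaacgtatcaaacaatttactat

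In the lncRNA:CR31044 window the TATAAA lay on the gene's own strand with its first base at -33 bp from the annotated start. The lncRNA:CR46036 window held 3 copies on the gene's strand, with first bases at -217, -210 and -157 bp. At lncRNA:CR45595 the TATAAA was on the opposite strand, at -317 bp, and the TAATTA at -400 bp. The Zelda sequence of lncRNA:CR45251 was at -411 bp. The Motif 1 match at lncRNA:roX2 began at 10 bp downstream of the start on the gene's strand. The GAGA repeat at lncRNA:iab8 was at -78 bp from an internal start, inside the gene, on the opposite strand. The lncRNA:CR43626 and lncRNA:roX1 windows held none of the capitalised sequences. These are matches of letters in the window, not measured sites.

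The strongest member lay at lncRNA:CR44339, a gene of no known function on chromosome arm 2R (dm6, chr2R:12985367-12985995, plus strand). Its summit was 149 bp upstream of the start, in intergenic DNA 4224 bp from the nearest protein-coding start, that of the Polycomb group gene Psc. The pooled signal value, a height per peak on the scale of the authors' peak caller, was 3734, which is rank 32 of the 30000 pooled peaks. The overlapping peak ranked 16 in replicate 2 and 41 in replicate 3, so both replicates placed it near the top of their own lists.

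The next members were lncRNA:CR31044 on 3R (signal value 2779, pooled rank 79, summit at -114 bp) and lncRNA:CR45595 on 3R (2535, rank 108, -326 bp). The nearest protein-coding starts were 5724 bp away at eEF1gamma, a translation elongation factor subunit, and 1187 bp away at l(3)neo38. lncRNA:CR46036 (2456, rank 121, -151 bp) lay in an intron of osa, which encodes a subunit of the Brahma chromatin remodelling complex, on the strand opposite to osa. Then came lncRNA:CR45251 on 3L (2206, rank 160, -330 bp), lncRNA:CR43626 on 3L (2187, rank 163, -372 bp) and lncRNA:CR45352 on 2L (2139, rank 170, -279 bp). Each of these summits was upstream of the nearest annotated start, but that of lncRNA:CR43626 lay inside the gene (chr3L:3249340-3254504, plus strand), in an exon, upstream of an internal start only.

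The other 8 of the strongest 15 had signal values of 1824 or less. They were lncRNA:CR45997, lncRNA:CR44676, lncRNA:CR44276, lncRNA:CR46102, lncRNA:CR44867, lncRNA:CR44810, lncRNA:CR45541 and lncRNA:CR44917, the last with 1461 at pooled rank 408. Among the 15, 10 summits were upstream of the nearest start, 2 of them (at lncRNA:CR43626 and lncRNA:CR44810) inside the gene and before an internal start only. The downstream summits at lncRNA:CR45997, lncRNA:CR44676 and lncRNA:CR44276 lay just past the far end of the gene. Of the 15, 11 lay outside protein-coding genes, 4 were on arm 2R and all 15 were at lncRNA: genes. Introns held lncRNA:CR46036, lncRNA:CR45997 in mbl, which encodes the splicing regulator Muscleblind, lncRNA:CR46102 in the lipophorin receptor gene LpR2, and lncRNA:CR44867 in beat-Ib. The worst rank of any of the 15 in either replicate was 520, so each was strong in both. The 15 were picked by signal in the pool of these same replicates, so such ranks are not separate support. The strongest asRNA: member, at asRNA:CR45999 on 3R, had a signal value of 1124 (pooled rank 668, -246 bp) and ranked 643 in replicate 2 and 688 in replicate 3.

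Of the 42 annotated lncRNA: and asRNA: genes with a name other than CR and digits, 36 had a start over 1000 bp from every protein-coding start. A member was found at 13 of these, and 7 had a member in the IDR list. Of all 1730 genes with such a start, 26.5% had a member and 9.31% had one in the IDR list. The strongest member at a named gene was at lncRNA:Hsromega (chr3R:21296127-21317836, plus strand), the heat-inducible nuclear RNA that organises omega speckles. Its summit was 194 bp downstream of the start with a signal value of 758 (pooled rank 1340), and it ranked 1968 in replicate 2 and 1148 in replicate 3. lncRNA:flam (chrX:21631891-21790731, plus strand), the precursor of piRNAs that silence gypsy-type transposons in ovarian follicle cells, had a summit at -173 bp with 747 (rank 1373; 1462 in replicate 2 and 1388 in replicate 3). A weaker summit at -463 bp from an internal start had 54.9 and no peak in replicate 2.

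Both dosage compensation RNAs had a member in the IDR list. lncRNA:roX2 (chrX:11579065-11580432, plus strand) had its stronger summit at 9 bp from the start, with a signal value of 295 (pooled rank 5319, 4363 in replicate 2 and 6325 in replicate 3), and a weaker one at 212 bp with 83.3. lncRNA:roX1 (chrX:3857230-3862697, minus strand) had 185 at a summit 106 bp upstream of an internal annotated start (rank 8513) and 156 at a summit 54 bp upstream of its outermost start (rank 9751), of which the first was in the IDR list. The pair at roX1 met the same peak in each replicate, rank 6604 in replicate 2 and 9561 in replicate 3, so they are not independent of each other. The same held for the pairs at roX2, TS2, TS16 and yar.

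In the bithorax complex, which holds the Hox genes of the posterior body, lncRNA:iab8 and lncRNA:iab4 had members. The iab8 RNA runs toward abd-A and carries a microRNA that represses Hox genes. Its member had a signal value of 259 at -98 bp from an internal start, inside the gene. This summit was in the IDR list (pooled rank 6148, 3850 in replicate 2 and 8444 in replicate 3). The iab4 RNA, precursor of the microRNA from the other strand, had 135 at 486 bp from an internal start and 41.8 at -385 bp, neither in the IDR list. At lncRNA:bxd, in the Ubx regulatory region, the nearest summit was 465 bp from a start of the protein-coding gene CG31275, so it was no member; its signal value was 43.5.

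The other named genes follow. lncRNA:TS2 had 390 at 39 bp and 116 at -163 bp, and lncRNA:TS16 had 337 at -72 bp and 59.2 at 134 bp; the stronger of each pair was in the IDR list. lncRNA:yar, between yellow and achaete and linked to sleep, had 145 at -181 bp and 43.9 at 18 bp. lncRNA:let7C, precursor of the let-7 group of microRNAs that time late development, had 74.2 at 450 bp. lncRNA:Vinr, lncRNA:mimi and lncRNA:acal, the last needed for dorsal closure of the embryo, had 59.3, 52.1 and 45.5. None of these last 5 genes was in the IDR list.

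A list of 11 characterised RNAs was drawn up with earlier results of these data known (roX1, roX2, Hsromega, bxd, iab8, iab4, let7C, yar, acal, cherub and sphinx). Of these, 8 had a member and 4 had one in the IDR list. Of all 1730 genes with an isolated start, 26.5% had a member and 9.31% had one in the IDR list. The counts of 8 and 4 describe this list only. lncRNA:cherub, known from brain tumours of neuroblast origin, had its nearest summit 12876 bp away. lncRNA:sphinx, linked to male courtship, had none within 3824 bp. Isolation decided some cases: at lncRNA:enrr a summit with a signal value of 2275 lay 261 bp from the start, but the same distance from a start of elav, the neuronal RNA-binding protein gene, and so was no member. The plot of summits at named genes gives each position and value.

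**Figure D1:**
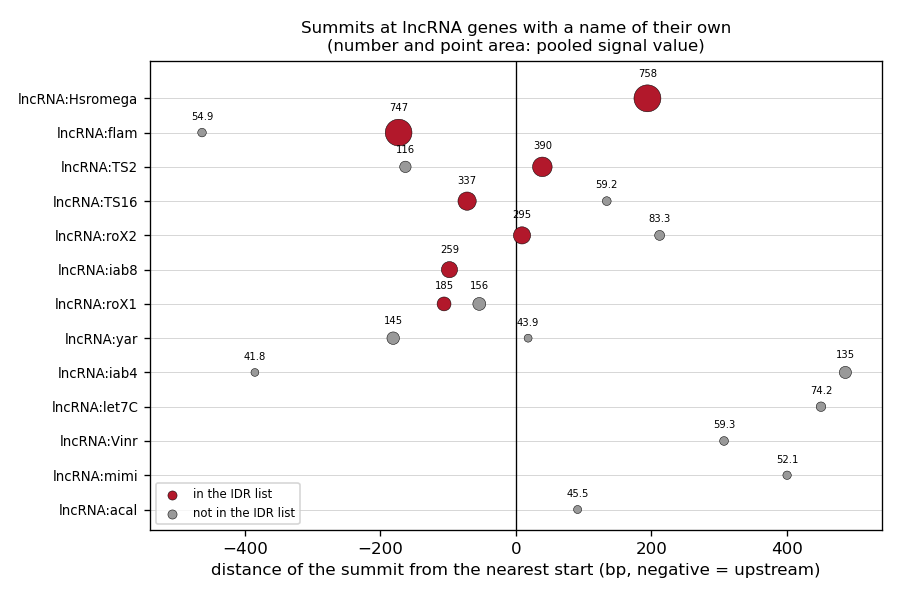
Summits at the 13 named lncRNA genes with a member, by distance in bp from the nearest start of the gene (negative is upstream); point area and number give the pooled signal value, and red points are in the IDR list. The values run between 758 at Hsromega and 41.8 at iab4, and 7 of the 20 summits are red.

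Members were of middling strength as a class. Their pooled signal values had a median of 82.7, with quartiles of 50.8 and 184, a lowest value of 35.3 and a highest of 3734, against a median of 161 for the 9338 summits within 500 bp of a protein-coding start. The 17477 other summits over 1000 bp from a protein-coding start had a median of 69.1, and all 30000 pooled peaks 86.9. The class was spread almost evenly over the ranking: 9.98% of members held ranks 1 to 3000 and 9.11% held ranks 27001 to 30000. At protein-coding starts the same shares were 17.7% and 4.83%, and among other distal summits 6.10% and 12.6%. The top 1000 ranks held 24 members and the top 300 held 10, where members were 571 of all 30000 peaks.

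**Figure D2:**
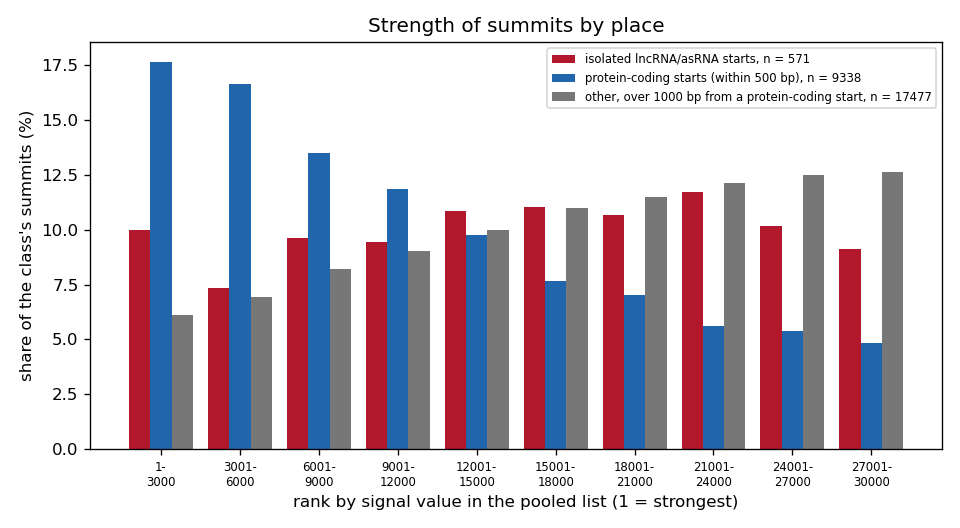
Share of each class of summit, in percent, in bins of 3000 pooled ranks by signal value, with rank 1 the strongest: summits at isolated lncRNA and asRNA starts, summits within 500 bp of a protein-coding start, and other summits over 1000 bp from a protein-coding start. Members stay between 7.36% and 11.7% in every bin, while protein-coding starts fall off and other distal summits gain toward weak ranks.

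The IDR list was the pooled list down to rank 9299, so a place in it restates the signal value. It held 162 members, or 28.4% (interval 24.7 to 32.3%), against 31.0% of all pooled peaks. Among summits at protein-coding starts the share was 49.2% (48.2 to 50.2%), and among other distal summits 22.1% (21.5 to 22.7%). The interval for members lay below that of protein-coding starts, above that of other distal summits, and took in the share of all peaks. At the authors' q-value of 0.05 or less stood 301 members, or 52.7% (48.5 to 56.9%), against 53.8% of all pooled peaks. lncRNA: members and asRNA: members had like shares in the IDR list, 151 of 531 (28.4%) and 11 of 40 (27.5%, interval 14.6 to 43.9%).

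In the replicates' own lists, 413 members, or 72.3% (68.5 to 76.0%), were overlapped by at least 1 bp of a peak in both, against 72.5% of all pooled peaks. A further 60 had a peak in replicate 2 only, 86 in replicate 3 only and 12 in neither. The share in both was 85.6% (84.9 to 86.3%) at protein-coding starts and 65.9% (65.1 to 66.6%) at other distal summits. Among members in the IDR list, 158 of 162 were overlapped in both. The 4 that were not, named here because their count is small, were lncRNA:CR45433 and lncRNA:CR43250, without a peak in replicate 3, and lncRNA:CR44256 and lncRNA:CR45399, without a peak in replicate 2. Over the 413 members with both, the ranks in the replicates had a Spearman correlation of 0.85, and over summits at protein-coding starts 0.88. The points share their libraries and the pooled peak that picked them. Where several replicate peaks overlapped a member, the strongest was taken. The same replicate peak could stand for several members, so a weak member can carry the rank of a strong neighbour.

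**Figure D3:**
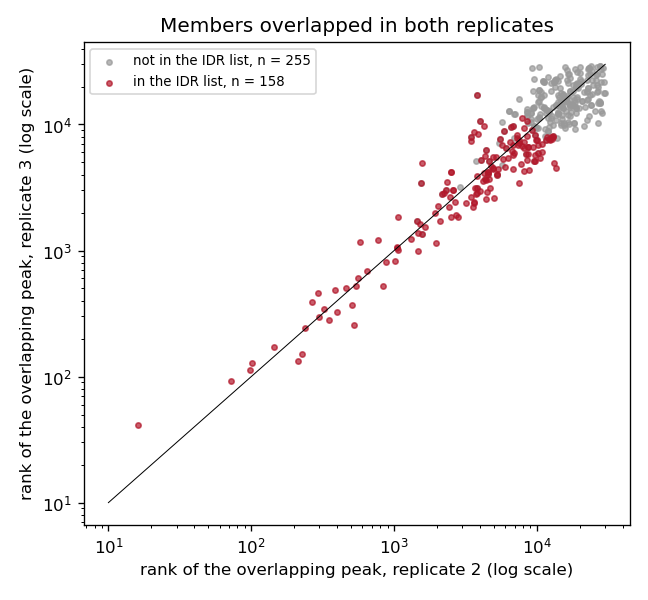
Rank of the strongest overlapping peak in replicate 2 (horizontal, log scale) and in replicate 3 (vertical, log scale) for the 413 members overlapped in both. Rank 1 is the strongest, the line marks equal ranks, and red points are the 158 in the IDR list. The red points run along the line from the strongest member, ranked 16 and 41, and the 255 grey points gather at weak ranks with a wider scatter.

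Summits were less concentrated at the annotated starts of these genes than at those of protein-coding genes. Members were spread fairly evenly over the admitted distances, with between 7.36% and 13.5% of them in each 100 bp. At protein-coding starts these shares ran from 2.57% to 27.2%, and among members in the IDR list from 4.32% to 18.5%. How exactly the annotation places the starts of either kind of gene was not tested, and all distances are to annotated starts. Of the members, 54.3% (50.1 to 58.4%) were upstream of the nearest start, with a median distance of -49 bp (quartiles -225.5 and 248 bp). Within 100 bp of the start lay 22.1% (18.7 to 25.7%), and 18.0% (15 to 21.4%) were more than 400 bp away. At protein-coding starts, 68.5% (67.6 to 69.4%) of summits were upstream, 43.0% were within 100 bp and 7.0% were more than 400 bp away. Of the 310 upstream members, 14 lay inside the noncoding gene, upstream of an internal start. The rule cuts both distributions off at 500 bp. Protein-coding starts were not held to isolation, and their genes can have many starts, of which the nearest was used. How far this shortens their distances was not tested. The intervals of the members and of protein-coding starts did not meet for any of these shares.

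Of the members in the IDR list, 62.3% (54.4 to 69.8%) lay before the start, with a median of -84 bp. Among the other members the upstream share was 51.1% (46.1 to 56.0%), and these intervals overlap. Within 100 bp lay 19.8% (13.9 to 26.7%) of the members in the IDR list. Of IDR summits at protein-coding starts, 47.4% (45.9 to 48.8%) were within 100 bp and 83.6% were upstream. By prefix, 30 of 40 asRNA: members were upstream (75%, interval 58.8 to 87.3%), with a median of -163 bp, against 52.7% (48.4 to 57.0%) of lncRNA: members. In the IDR list, 10 of 11 asRNA: members were upstream.

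**Figure D4:**
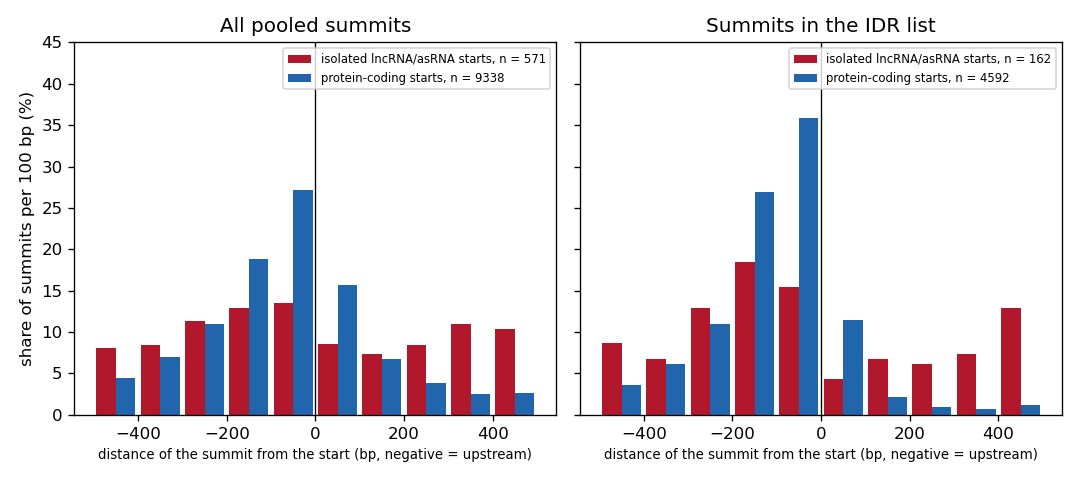
Share of summits, in percent, per 100 bp of distance from the nearest start (negative is upstream), for isolated lncRNA and asRNA starts (red) beside protein-coding starts (blue), in all pooled summits (left panel) and in the IDR list (right panel). Blue bars peak just upstream of the start, at 27.2% and 35.8%, while the tallest red bars reach 13.5% and 18.5%.

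Most members were intergenic with respect to protein-coding genes. The same split was not computed for the sequence that the rule admits or for other summits, so the shares of places and strands have no background beside them. Outside any protein-coding gene lay 420 (73.6%, interval 69.7 to 77.1%), and 138 (24.2%, 20.7 to 27.9%) lay in an intron of one. In introns, the host gene was on the strand opposite to the noncoding gene for 99 members and on the same strand for 39. Signal values had a median of 87.1 outside protein-coding genes and 73.9 in introns, with 30.5% (26.1 to 35.1%) and 23.9% (17.1 to 31.9%) in the IDR list, intervals that overlap. Coding sequence and 3' UTRs held 6 members each, none in the IDR list. The single member in a 5' UTR, at lncRNA:CR44084 in ogre, an innexin gene, had a signal value of 237 and was in the IDR list. Exons of noncoding genes held 229 members.

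Isolated noncoding starts were a small territory with a high density of summits. The sequence that the rule admits spanned 1.71 Mb and held 333 summits per Mb (interval 307 to 362), against 161 per Mb (158 to 163) in the other 109 Mb lying over 1000 bp from a protein-coding start, a ratio of 2.07. For peaks in the IDR list the densities were 94.6 per Mb (80.6 to 110.3) and 35.6 per Mb (34.5 to 36.7), a ratio of 2.66. The pooled density changed little with distance, at 352 per Mb within 250 bp of a start and 317 within 1000 bp. The comparison sequence takes in chromosome Y, with 0.276 summits per Mb. By arm the density at noncoding starts was 328 per Mb on 2L, 371 on 2R, 345 on 3L, 302 on 3R and 328 on X, with overlapping intervals. The rest of the distal sequence of these arms held 173, 147, 176, 159 and 187 per Mb, in the same order. Chromosome 4 had 7 members, at 483 per Mb (194 to 996), against 20.4 per Mb in the rest of its distal sequence. None of these 7 was in the IDR list, and 3 of them were at asRNA:CR44030.

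Of 1730 lncRNA: and asRNA: genes with an isolated start, 459 had a member (26.5%, interval 24.5 to 28.7%) and 161 had one in the IDR list (9.31%, 7.98 to 10.8%). The share was 28.3% (26.1 to 30.6%) of 1519 lncRNA: genes and 13.7% (9.40 to 19.1%) of 211 asRNA: genes. Of the 13968 protein-coding genes, 56.3% had a pooled summit within 500 bp of a start, though these genes were not held to isolation and can have many starts. In the IDR list a member was found at 152 of the lncRNA: genes and 9 (4.27%) of the asRNA: genes, and a summit at 39.8% of protein-coding genes.

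Some genes gathered several summits. By nearest gene, 354 genes had 1 member, 93 had 2, 9 had 3 and 1 had 4. The gene with 4 was lncRNA:CR43650 on 2R, with signal values of 526, 70.1, 54.6 and 53.9, of which the first was in the IDR list, at -99 bp from an internal start. Of the 10 genes with 3 or more, lncRNA:CR45157 (highest value 246), lncRNA:CR43642 (244) and lncRNA:CR43334 (178) also had 1 in the IDR list, and 6 had none. Those 6 were asRNA:CR44030, lncRNA:CR46336, lncRNA:CR46006, lncRNA:CR45303, lncRNA:CR45919 and lncRNA:CR46240, whose highest values ran from 91.1 to 141. Peaks of neighbouring members often overlapped: merged, the 571 peaks formed 489 separate stretches, and 162 members shared a stretch with another member.

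Neighbouring noncoding genes also carried members together in a few places, chosen here after their values were seen. On 3R, 5 members had mtSSB, the mitochondrial single-stranded DNA-binding protein gene, as their nearest protein-coding gene, and 4 of them were in the IDR list: lncRNA:CR45639 (signal value 453), lncRNA:CR45642 (299.6), lncRNA:CR45637 (246) and lncRNA:CR45641 (224). The remaining one, lncRNA:CR45640, had 35.5. The peaks of lncRNA:CR45639 and lncRNA:CR45637 overlapped and met the same peak in each replicate (rank 2565 in replicate 2 and 3015 in replicate 3), so these 2 are not independent of each other. With the Wnt receptor gene fz2 nearest, lncRNA:CR43893 had 152 and 53.2 and lncRNA:CR45941 had 51.8, and none was in the IDR list.

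The summits next to the 500 bp limit were all weak, while those next to the 1000 bp limit were weak and strong. Just inside 500 bp stood asRNA:CR43629 (500 bp, signal value 41.9) and lncRNA:CR45303 (500 bp, 53.4), and just outside lncRNA:CR44865 (501 bp, 37.8) and asRNA:CR46144 (502 bp, 38.9). Just beyond 1000 bp from a protein-coding start, and so kept, were lncRNA:CR44444 (1005 bp, 64.1) and asRNA:CR45999 (1044 bp, 1124). Just within it, and so left out, were asRNA:CR44114 (982 bp, 235) and lncRNA:CR44522 (993 bp, 89.7).

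The DRE, Motif 1 and the E-box were less frequent under members than at protein-coding starts. In the pooled list the TATA box, the initiator core and the GAGA repeat had like shares in both. The DRE was found in 7 member windows, or 1.23% (interval 0.494 to 2.51%), against 7.92% (7.38 to 8.49%) at protein-coding starts, 0.515% (0.414 to 0.633%) at other distal summits and 2.85% of all pooled windows. Those in the IDR list were at lncRNA:CR46475 (signal value 237, summit at -1 bp), asRNA:CR45806 (211, -482 bp) and lncRNA:CR43256 (176, -300 bp). Motif 1 was found in the roX2 window alone, 0.175% of members (0.00443 to 0.972%), against 3.57% (3.20 to 3.96%) at protein-coding starts, 0.109% at other distal summits and 1.19% of all windows. For the DRE and Motif 1 the members' interval lay below that of protein-coding starts.

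The GAGA repeat was in 31 member windows, 5.43% (3.72 to 7.62%), against 4.98% (4.55 to 5.44%) at protein-coding starts, 3.22% (2.96 to 3.49%) at other distal summits and 3.99% of all windows. In the IDR list, 11 of 162 member windows held it, 6.79% (3.44 to 11.8%), against 2.92% (2.45 to 3.45%) at protein-coding starts, 2.28% (1.83 to 2.80%) at other distal summits and 2.73% of the whole list. The members' interval lay above that of other distal summits in both lists; in the IDR list it only just met that of protein-coding starts. The E-box was in 8.06% (5.96 to 10.6%) of member windows, against 12.5% (11.8 to 13.2%) at protein-coding starts. It was in 7.20% at other distal summits and 8.99% of all windows. The members' interval for the E-box lay below that of protein-coding starts. TATAAA (27.8%, against 29.5% of all windows), TAATTA (14.4%, against 14.8%) and TCAGT (32.7%, against 32.6%) were near the share of all windows. CAGGTAG was in 4 member windows (0.701%, against 0.970% of all), at lncRNA:CR45251, lncRNA:CR44863, lncRNA:CR45721 and lncRNA:CR43849.

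Mean GC content was 39.8 ± 9.62% (SD over 571 windows) for members, against 39.0% for all pooled windows. It was 33.5% for members in the IDR list and 42.3% for the rest, and 34.3% for the whole IDR list. Windows in the IDR list were poorer in G and C than the rest, among members as in the lists at large. Of the 7 named genes' members in the IDR list, 3 were below the mean of that list, lncRNA:Hsromega with 31.8%, lncRNA:flam with 29.9% and lncRNA:TS16 with 24.4%. The other 4 were above it, lncRNA:TS2 with 40.8%, lncRNA:roX2 with 41.3%, lncRNA:roX1 with 44.8% and lncRNA:iab8 with 58.7%.

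**Figure D5:**
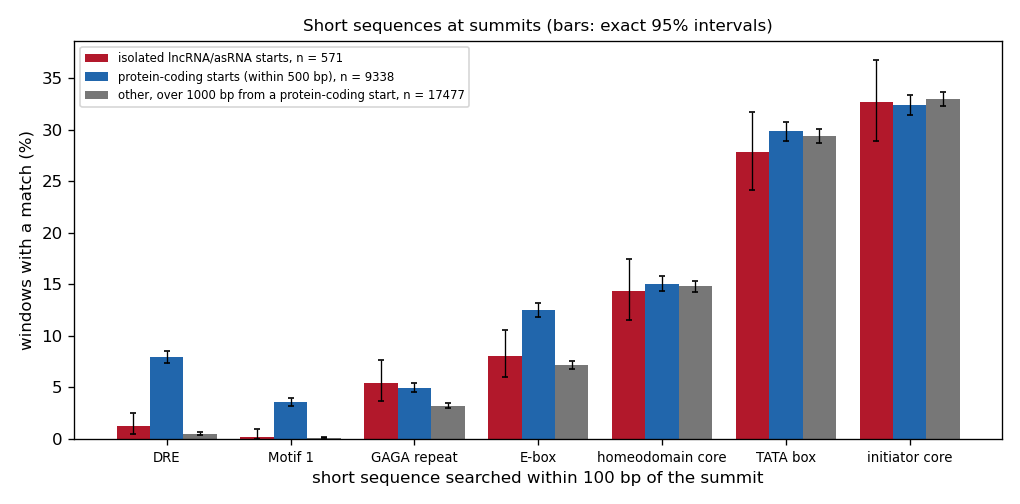
Share of summit windows, 100 bp to either side, in percent, with a match on either strand to each short sequence; red bars are the 571 members, blue bars summits at protein-coding starts and grey bars other summits over 1000 bp from a protein-coding start, with exact 95% intervals. DRE and Motif 1 stand at 1.23% and 0.175% in members, near the grey bars and below the blue ones at 7.92% and 3.57%.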

How the data were processed

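Anti-GFP ChIP-seq of nmo-GFP embryos was deposited as 4 peak lists on assembly dm6: 30000 peaks each for replicate 2, replicate 3 and their pool, and 9299 IDR-thresholded peaks. Per the deposited text notes, peak calling used the replicates' alignments and 1 further file, which also went into the tracks normalised to a control. Which aligner, peak caller, settings and IDR threshold were used is not given in the sources used here. The authors' lists hold a signal value per peak, comparable within 1 list only, and a −log10 q-value, whose ceiling of 4.27 was shared by 160 members, so that it was used only at the 0.05 limit. The summit is the deposited start plus offset; printed coordinates are 1-based.

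Starts of every annotated transcript came from Ensembl release 115 (BDGP 6.54); 0 peaks and 0 genes lay beyond chromosome ends of the sequence used. Distances, overlaps, motif matches and exact intervals were computed with Python 3.11.15, numpy 2.4.6, pandas 2.3.3 and scipy 1.17.1, and checked on simulated data. The text names members at genes with a name of their own, the 15 strongest, genes with 3 or more members, summits at each limit and 11 listed RNAs. Members and lists were chosen with earlier results of these data known. The alternatives were other distances, windows, overlap criteria, starts and lists, and the strongest summit of each gene alone.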

Additional observations from a re-analysis of the deposited data

How the results depend on the processing

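Of 87 values recomputed under 13 settings, 58 stayed inside the 95% interval of the value reported (within 1.5-fold for the number of members) and 29 did not. Within 250 bp there were 309 members, with 61.5% upstream and 15.4% of eligible genes hit; within 1000 bp these were 1046, 50% and 39.8%, with GC of 38.9%. With only the strongest summit of each gene kept, 33.9% were in the IDR list and the median signal value was 94.6. The density was then 267 per Mb and GC 39.0%. Keeping the strongest raises the IDR share and the median by construction, and fewer summits over the same sequence lower the density. The IDR list alone gave 162 members, a median of 339, 97.5% in both replicates, 62.3% upstream, 9.31% of genes, 94.6 per Mb and GC of 33.5%. At a q-value of 0.05 or less these were 301, 175, 94.7%, 58.8%, 16.1%, 176 per Mb and 36.2%, with 53.8% in the IDR list. Both stricter lists keep only strong peaks by construction. The share in both replicates was 54.1% when the summits had to lie within 100 bp and 58.8% at 50% reciprocal overlap, and the DRE share was 0.350% in windows of 50 bp to either side. Exclusion zones of 500 and 2000 bp and the outermost start of each gene moved no value outside these limits. The lists of replicates 2 and 3 alone gave 549 and 558 members, with 54.5% and 54.3% upstream and a DRE in 1.64% and 1.43%. No paired analysis was possible because the series has 1 group. Read depth was unknown, so the depth behind a missing summit is unknown too.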
